A study of Mus musculus with 143 samples.

Results

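The genes described here are the myeloid receptor Trem2, the adaptors Tyrobp and Fcer1g, the 4 Fc gamma receptors Fcgr1, Fcgr2b, Fcgr3 and Fcgr4, and the kinase Syk. They were chosen by name, as the 8 rows with these symbols among the 23337 gene rows of a count table, and all 8 were found. Their detection, their levels and the ratio of each receptor to its adaptor were measured in 143 single microglia. The cells came from the cerebellum of wild type male C57BL/6N mice at postnatal day 7. Each cell was live, low for CD45, and positive for CD11b, Gpnmb and Clec7a, and was sorted into its own well. Libraries were made with Smart-seq2, which reads along the whole transcript and has no molecular identifiers. Plate 1 held 95 of the cells and plate 2 held 48.

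Every cell carries the same group labels, and animals were pooled, so that a cell cannot be assigned to an animal. The series therefore holds 1 sample, there is no control population, and the plates are technical batches. No test between groups of cells was made and no p-value is given. Shares of cells carry an exact Clopper-Pearson 95% interval that covers counting error only, because the spread between animals cannot be seen and several reads can come from 1 molecule. The word adult occurs in a library name, whereas the age and the title of the series both say P7, and the cells are described by the latter.

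Microglia are the resident macrophages of the brain. Many of their surface receptors have no signalling tail of their own and pair with a small adaptor that carries an immunoreceptor tyrosine-based activation motif (ITAM). Tyrobp, also called DAP12, serves Trem2, a receptor for lipids and lipoproteins, while Fcer1g, the common Fc receptor gamma chain, serves the activating receptors for IgG. Phosphorylated ITAMs recruit the kinase Syk. Fcgr2b carries an inhibitory motif (ITIM) in its own tail, needs no adaptor and opposes the activating receptors. In microglia these genes are known for the uptake of lipid debris, apoptotic cells and opsonised particles.

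The label microglia was checked against marker genes. Of 12 microglia markers, 11 had a count in at least 50% of cells, and Tmem119 had one in 25.9%. All 7 T and NK cell markers were at 0, as were 5 of 6 mast cell and basophil markers and 4 of 5 B cell markers. Of 7 monocyte markers, 4 were at 0, Ly6c2 among them. Fn1 was read in 15.4% of cells, and Ccr2 and Vcan in 3 cells each. Of 7 markers of border macrophages, 3 were at 0, namely Cd163, Lyve1 and Cd209f. The others were read, Mrc1 in 55.9% of cells, Ms4a7 in 21.0%, Pf4 in 16.1% and Cbr2 in 10.5%. In 97 of 143 cells at least 1 border macrophage marker was read. At least 1 oligodendrocyte marker was read in 33 cells, an astrocyte marker in 32, an endothelial marker in 16 and a neuron marker in 15. Neutrophil markers were read in 11 cells and dendritic cell markers in 7. Gene counts per cell, spike-ins left out, ran from 259613 to 1178529 with a median of 727276, so that 1 count in a cell of median depth corresponds to 1.37 counts scaled to 1000000 gene counts (CPM).

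In the GRCm38 annotation (the assembly also called mm10), 4 of the 8 genes lie on chromosome 1. Fcgr2b (minus strand, 170958617 to 170976547), Fcgr4 (plus strand, 171018920 to 171029761), Fcgr3 (minus strand, 171051174 to 171064935) and Fcer1g (minus strand, 171229572 to 171234365) follow each other there. Fcgr1 lies apart from them on chromosome 3 (minus strand, 96282909 to 96293969). Trem2 is on chromosome 17 (plus strand, 48346401 to 48354147), Tyrobp on chromosome 7 (plus strand, 30413760 to 30417585) and Syk on chromosome 13 (plus strand, 52583173 to 52648792). All 8 are protein-coding genes. The exons of Fcgr2b overlap those of Gm38204 on the opposite strand over 155 bases, and Gm38204 has no row in the table.

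Fcgr2b and Fcgr3 are close relatives, and their transcripts share identical stretches. Reads that fall wholly within such a stretch cannot be assigned to either gene. The longest is printed here. It is coding sequence of the minus strand, starts in exon 3 of each gene and continues into the next exon (Fcgr2b chr1:170966674-170968081, Fcgr3 chr1:171054167-171057792, introns included).
Fcgr2b and Fcgr3 shared run: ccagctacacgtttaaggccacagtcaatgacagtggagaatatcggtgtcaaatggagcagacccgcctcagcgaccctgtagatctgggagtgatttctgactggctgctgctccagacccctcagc
Of all windows of 50 bases, 4.75% of those in the longest Fcgr2b transcript and 12.8% of those in Fcgr3 were found in the other gene. No other pair of the 4 receptors shared a window of that length. The counts of Fcgr2b and Fcgr3 carry this uncertainty. The treatment of such reads by the authors is not stated in the sources at hand.

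Promoter sequences of 7 of the 8 genes were matched by symbol in RefSeq (GRCm38.p6), and Tyrobp had no entry. They were searched, over 250 bases before to 50 after each start, on both strands, for GAGGAA, a core associated with the myeloid transcription factor PU.1. The 100 bases before the start are printed for the Tyrobp-paired receptor, for the 3 activating Fc gamma receptors and for their adaptor, with matches in capitals (TTCCTC is the motif on the opposite strand).
Trem2 (chr17:48346301-48346400, plus strand): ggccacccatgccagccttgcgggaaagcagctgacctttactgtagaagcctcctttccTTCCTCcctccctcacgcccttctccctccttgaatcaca
Fcgr3 (chr1:171059404-171059503, minus strand): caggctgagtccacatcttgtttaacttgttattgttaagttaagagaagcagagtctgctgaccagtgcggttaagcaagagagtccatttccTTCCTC
Fcgr1 (chr3:96293970-96294069, minus strand): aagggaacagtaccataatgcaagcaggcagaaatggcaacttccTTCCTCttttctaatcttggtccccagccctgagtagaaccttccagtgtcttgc
Fcgr4 (chr1:171018826-171018925, plus strand): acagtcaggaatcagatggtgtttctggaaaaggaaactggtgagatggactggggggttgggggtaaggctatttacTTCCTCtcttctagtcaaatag
Fcer1g (chr1:171234350-171234449, minus strand): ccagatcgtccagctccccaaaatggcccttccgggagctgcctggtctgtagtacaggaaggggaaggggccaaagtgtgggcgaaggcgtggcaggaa
With the start site as base 0, the match began at base -40 in Trem2, -55 in Fcgr1 and -22 in Fcgr4. In Fcgr3 it began at -6 from the start shown and at -15 from a second annotated start. Syk had a match at -9 from its second start. No match was found in the windows of Fcer1g and Fcgr2b. The same 6 letters occur in 28.3% of all 32851 promoters of this length, so a match describes the sequence and is not evidence of binding.

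The adaptors had the most reads and the smallest relative spread of the 8 genes. Tyrobp was read in 143 of 143 cells (interval from 97.5%), at 1161 CPM in the lowest cell, 2441 in the median cell and 4084 in the highest. The highest cell was 3.52-fold above the lowest. Fcer1g was likewise read in all 143 cells, at a lowest value of 683 CPM, a median of 1780 and a highest value of 3215, a 4.70-fold range. By reads pooled over cells, Tyrobp ranked 32nd and Fcer1g 49th of the 12801 genes with any count. Of all genes with any count, 4.26% were read in at least 90% of cells, and the median gene was read in 16.1%.

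The spread of both adaptors between cells was small beside the genes nearest to them in mean level. The coefficient of variation of CPM was 0.239 for Tyrobp and 0.298 for Fcer1g. Among the genes nearest to it in mean level, 6 of 130 were less variable than Tyrobp and 11 of 148 less variable than Fcer1g. Few genes lie above the adaptors, Trem2 and Fcgr3. Their comparison sets therefore took in every gene with a higher mean, however far above, and a larger number with a lower mean. The 5 highest cells held 5.42% of all Tyrobp reads and 5.88% of Fcer1g reads.

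Trem2 was read in all 143 cells. It had 444 CPM in the lowest cell, 1315 in the median cell and 3128 in the highest, with quartiles of 1035 and 1642. No cell was without Trem2 reads or near the level of a single count. Its coefficient of variation, 0.385, lay above those of both adaptors, and 38 of the 159 genes in its comparison set were less variable. By pooled reads it ranked 60th, at 1394 CPM.

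Fcgr3, the low-affinity activating IgG receptor also called CD16, was read in all but 1 cell (99.3%, interval 96.2 to 99.98%). Its values ran from 0 to 4139 CPM with a median of 1047 and quartiles of 734 and 1541. The cell without Fcgr3 reads was on plate 2, with 606765 gene counts and 2885 genes read. The same cell had 743 CPM of Trem2, 1894 of Tyrobp, 1989 of Fcer1g and 72.5 of Fcgr1. Among cells with reads the lowest level was 112.7 CPM, so Fcgr3 had no cells with traces alone. Its coefficient of variation of 0.564 was the widest of the 4 genes read in nearly every cell. Of the 170 genes in its comparison set, 62.4% were less variable.

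**Figure D1:**
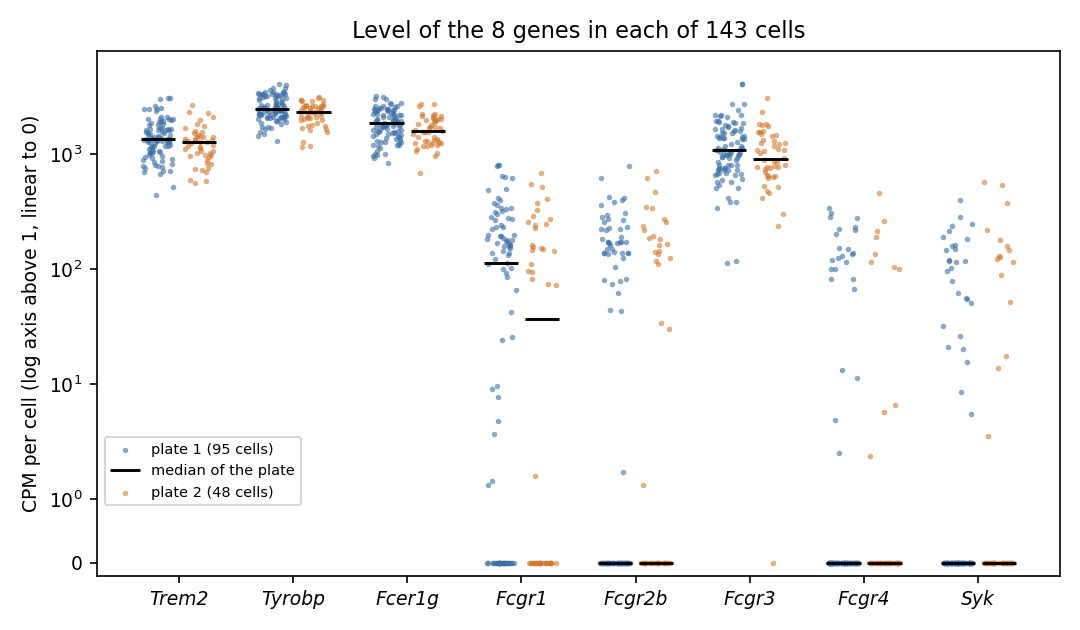
Level of each of the 8 genes in every cell (vertical axis, CPM, log above 1 and linear down to 0; each point is a cell, split by plate, and bars are plate medians). Tyrobp, Fcer1g and Trem2 lie above 400 CPM in every cell, Fcgr3 in a broader band with 1 cell at 0, while Fcgr1, Fcgr2b, Fcgr4 and Syk divide into cells at 0 and cells at a wide range of levels.

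The remaining activating receptors were read in part of the cells. Fcgr1, the high-affinity IgG receptor CD64, was read in 89 cells (62.2%, interval 53.8 to 70.2%). Its median was 94.5 CPM over all cells and 180 CPM over cells with reads, and the highest cell had 806. Fcgr4, which has intermediate affinity for IgG2 subclasses, was read in 36 cells (25.2%, interval 18.3 to 33.1%). Its middle value in those cells was 128.04 CPM, the highest cell had 467, and the 5 highest cells held 32.04% of all its reads. When they were read, both were mostly well above a single count: 70 cells had at least 100 CPM of Fcgr1 and 25 cells at least 100 CPM of Fcgr4.

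Fcgr2b, the inhibitory receptor, was read in 70 cells (48.95%, interval 40.5 to 57.4%). Over these the median was 173 CPM and the highest value 801, and 59 of the 70 had at least 100 CPM. Of the 200 genes nearest in mean level, which were read in a median of 61.5% of cells, 23 were read in fewer cells than Fcgr2b. Fcgr1 was nearer to its own neighbours, whose median was 67.8%, and Fcgr4 to its own, at 26.6%.

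Spike-in RNAs are added in the same amount to each well, and show how often an RNA present in every well is missed. They were matched to each gene by mean count over all cells, cells without reads included. The match therefore cannot give the miss rate of a gene expressed in only part of the cells. The spike-in nearest in mean count to Fcgr1 was read in 79.7% of cells, against 62.2% for Fcgr1. For Fcgr2b the nearest spike-in was read in 78 cells against 70, and for Fcgr4 in 35 cells against 36. The spike-in nearest to Syk was read in 76 cells against 45. A cell without reads of these 4 genes is therefore not shown to lack the transcript. Other spike-ins of near level differed widely from these: the next nearest to Fcgr4 was read in 76 cells.

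Syk, the kinase that both adaptors recruit, had few reads. It was read in 45 cells (31.5%, interval 23.97 to 39.8%). The median over those cells was 119.2 CPM and the highest value 579. The 5 highest cells held 34.3% of its reads. This detection was at the median of the 200 genes of like level, 31.5%. In pooled reads Syk had 43.5 CPM and ranked 3468th by reads.

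Full-length libraries give long transcripts more reads, so the ranks by reads given so far are not ranks by molecules, and the 8 genes were compared with each other per kb of transcript. The length used matters here. The merged exons of Trem2 (4946 bases) take in a retained-intron model, while its longest transcript with a consensus coding sequence (CCDS) is 1088 bases long and its coding part 750. For Tyrobp these lengths are 667, 564 and 345 bases. Values below are given with merged exons first, then with the CCDS transcript, a length added after the merged lengths were seen.

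Tyrobp led with 3723 pooled CPM per kb of merged exons and 4403 per kb of CCDS transcript. Fcer1g followed with 2077 and 2693. The next places depended on the length: Fcgr3 was above Trem2 by merged exons (682 against 282) and below it by CCDS transcripts (879 against 1282). Fcgr1 had 56.7 by both lengths. Fcgr4 and Fcgr2b lay close to each other, at 28.8 and 17.9 by merged exons and at 28.8 and 29.3 by CCDS transcripts, so their order is not settled. Syk was last by either length, at 4.65 and 8.12. By merged exons Tyrobp ranked 8th, Fcer1g 18th and Fcgr3 49th among 12633 genes with a length. Trem2 ranked below these 3 by merged exons, 35th by CCDS transcripts and 57th by coding length.

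**Figure D2:**
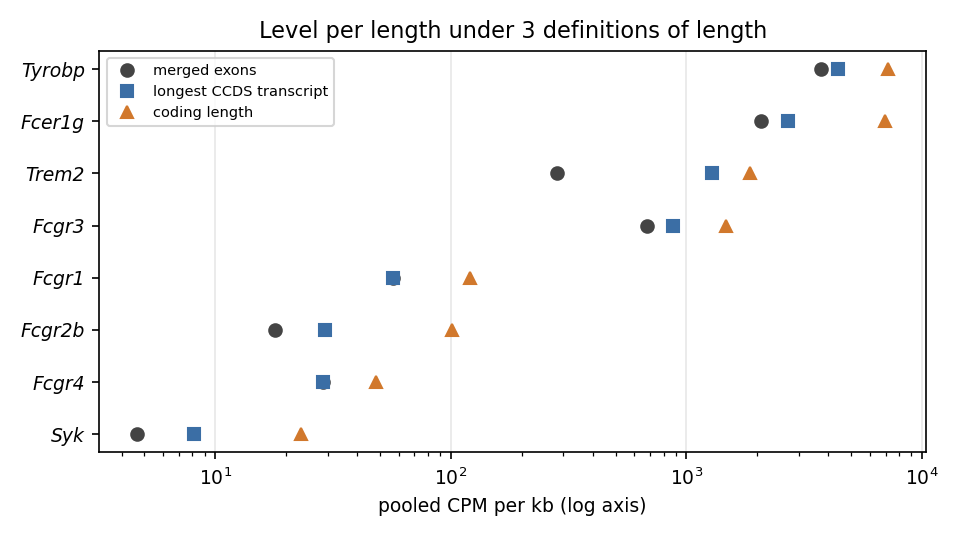
Pooled level of each gene per kb (log axis, CPM per kb) computed with merged exons, the longest CCDS transcript and the coding length. Tyrobp and Fcer1g lead and Syk is last under all 3 lengths, while Trem2 and Fcgr3, and Fcgr2b and Fcgr4, change places with the length.

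Trem2 was well below its adaptor under every length. Pooled over cells, the ratio of Trem2 to Tyrobp per kb was 0.0757 with merged exons, 0.291 with CCDS transcripts and 0.258 with coding lengths. With CCDS transcripts the ratio in single cells ran from 0.0803 to 0.811 with a median of 0.281, and in 0 of 143 cells did Trem2 exceed Tyrobp. The plates had pooled ratios of 0.292 and 0.289. The cell with the lowest ratio had 522 CPM of Trem2 beside 3367 of Tyrobp, and the cell with the highest had 2056 beside 1314.

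Other receptors known to pair with Tyrobp were below Trem2. Of 10 listed, 4 were read in 0 cells (each with an exact interval up to 2.55% of cells with a read) and 2 in at least 50%. The 2 were Clec5a, a C-type lectin (74.1% of cells, 264 pooled CPM), and Siglech, a microglial sialic acid binding lectin (69.2%, 171 pooled CPM). Cd300lb was read in 11.2%. Summed with Trem2, the list came to 0.327 of Tyrobp per kb of CCDS transcript, of which Trem2 made up 88.9%. With merged exons the sum was 0.112 and the share of Trem2 67.8%.

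The activating Fc gamma receptors together were also below their adaptor. The sum of Fcgr1, Fcgr3 and Fcgr4 was 0.370 of Fcer1g per kb with merged exons, 0.358 with CCDS transcripts and 0.236 with coding lengths. With CCDS transcripts the ratio in single cells had a median of 0.324 and ran from 0.00949 to 1.59, and the receptors exceeded the adaptor in 4 cells. Fcgr3 by itself reached 0.326 of Fcer1g, Fcgr1 0.0211 and Fcgr4 0.0107. Fcgr3 made up 88.9% of the activating receptors by merged exons and 91.1% by CCDS transcripts. Of 9 further receptors known to use Fcer1g, 5 were read in 0 cells. The leading ones were Lilra5 (14.7% of cells), Cd300ld (11.9%) and Clec4n (Dectin-2, 4.90%), and with them the sum rose to 0.378 of Fcer1g by merged exons.

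The adaptors themselves stood at 1.79 Tyrobp per Fcer1g by merged exons and 1.64 by CCDS transcripts, and Tyrobp was the higher in 99.3% and 97.2% of cells. By coding length the ratio was 1.04 and Tyrobp was the higher in 52.4% of cells, so the order of the adaptors in single cells rests on the length chosen. Other signalling adaptors were few. Of 7 listed, 6 with an ITAM and Hcst with a different motif, 5 were read in 0 cells, Cd79b, a chain of the B cell receptor complex, was read in 37.1% of cells, and Hcst (DAP10) in 21.0%.

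**Figure D3:**
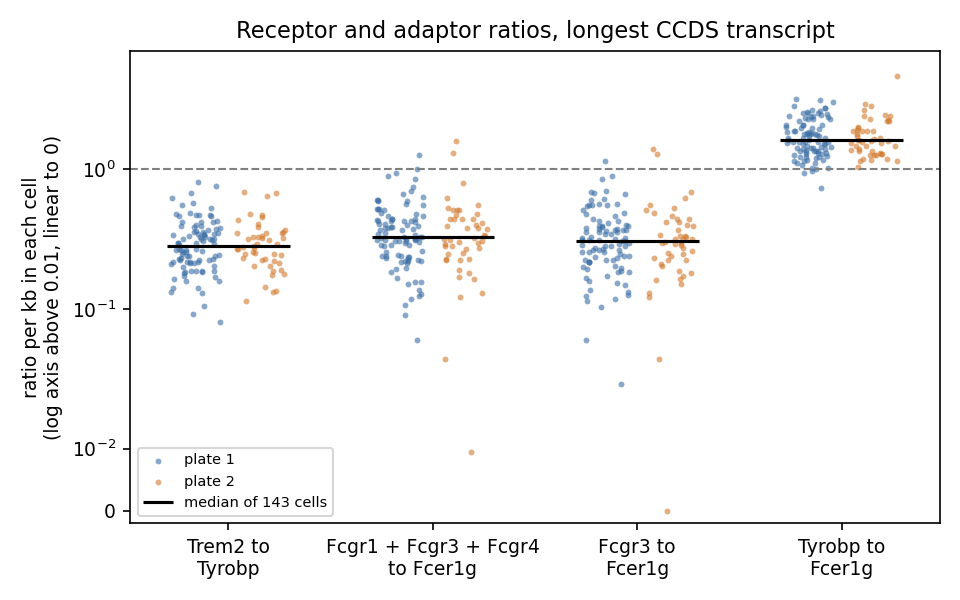
Ratios of Trem2 to Tyrobp, of the activating receptors and of Fcgr3 to Fcer1g, and of Tyrobp to Fcer1g in single cells (log axis, linear near 0, ratio per kb of CCDS transcript; points are cells by plate, bars medians of 143 cells, and the dashed line a ratio of 1). Trem2 lies below Tyrobp in all 143 cells, the activating receptors below Fcer1g in all but 4, and Tyrobp above Fcer1g in 97.2% of cells.

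Among the 4 Fc gamma receptors, Fcgr3 was the highest in nearly every cell. It made up 86.8% of the 4 per kb of merged exons, 88.5% by CCDS transcripts and 84.5% by coding lengths. It was the highest of the 4 in all but 2 cells under all 3 lengths. In 1 of these 2, the cell without Fcgr3 reads, Fcgr1 was highest. In the other, Fcgr4 was: that cell had 150 CPM of Fcgr4, 112.7 of Fcgr3, 153 of Fcgr1 and 105.3 of Fcgr2b. The inhibitory receptor Fcgr2b came to 0.0233 of the activating sum by merged exons, 0.0303 by CCDS transcripts and 0.0617 by coding length.

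The receptors were read in combinations close to those that independent detection would give. A single receptor was read in 26 cells (18.2%), 2 in 52 (36.4%), 3 in 53 (37.1%) and all 4 in 12 (8.39%). Independent detection at the same rates would give 20.9, 60.6, 50.4 and 10.9 cells. The most frequent combination was Fcgr1, Fcgr2b and Fcgr3 (34 cells, 32.4 if independent), then Fcgr1 with Fcgr3 (32, 33.8) and Fcgr3 by itself (25, 20.5). Fcgr2b with Fcgr3 and no other was less frequent than that reckoning (15, 19.6). Each of the 70 cells with Fcgr2b also had an activating receptor, as did all 143 cells. Fcgr2b and Fcgr4 were read together in 21 cells, with 17.6 if independent, and Fcgr1 and Fcgr2b in 46, with 43.6. Fcgr4 and Syk were read together in 11 cells, with 11.3 if independent.

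**Figure D4:**
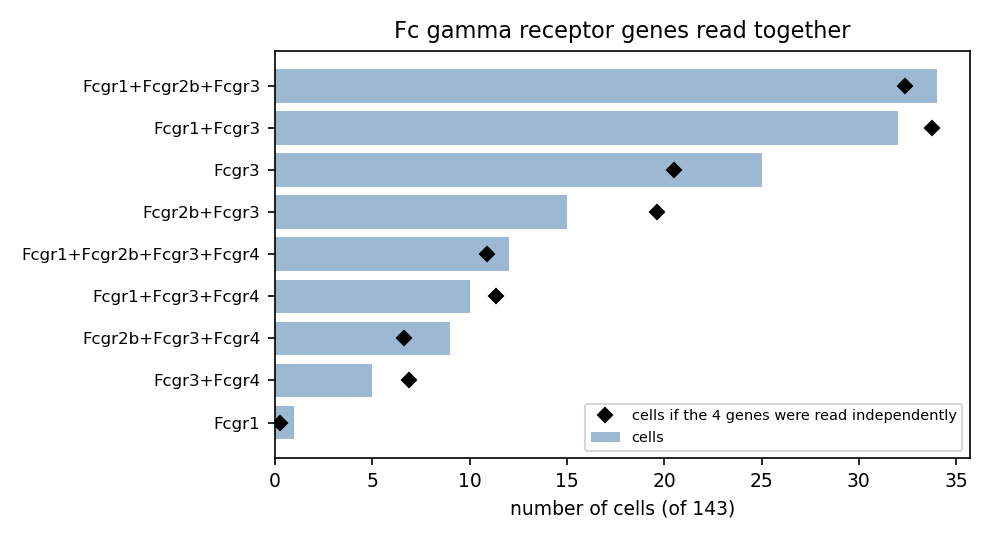
Number of cells with each combination of Fc gamma receptors (bars, axis from 0) beside the number if each were detected independently (markers). Observed and independent numbers are 34 and 32.4 cells for Fcgr1 with Fcgr2b and Fcgr3, and differ most for Fcgr2b with Fcgr3 (15 and 19.6) and Fcgr3 by itself (25 and 20.5).

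Correlations over the 143 cells were weak, and they are given as descriptions (Spearman's rho on CPM ranked within plate). The cells share a pool, a plate and differences in depth. Of 28 pairs of the 8 genes, 3 reached 0.3 and 22 lay between -0.2 and 0.2. The highest was Tyrobp with Fcer1g, at 0.36 (0.37 on plate 1, 0.34 on plate 2, and 0.60 with counts scaled to spike-ins). Trem2 with Fcgr3 was at 0.34 (0.27 and 0.47) and Fcgr2b with Fcgr3 at 0.34 (0.29 and 0.44). With spike-in scaling these 2 pairs were at 0.44 and 0.20. The last pair shares identical stretches, the longest of them printed above, and the part of these in the coefficient was not tested. By CPM, Fcgr3, Fcgr2b and Trem2 were each lower in cells with more genes read (rho -0.32, -0.34 and -0.27). With spike-in scaling Fcgr3 and Trem2 turned to 0.15 and 0.32 and Fcgr2b was at -0.26, so the direction for Fcgr3 and Trem2 rests on the scale.

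By CPM, receptors followed their own adaptors less than these pairs, but the order changed with the scale. Trem2 with Tyrobp was at 0.12 (0.40 with spike-in scaling), Fcgr1 with Fcer1g at 0.17 and Fcgr4 with Fcer1g at -0.17. Fcgr3 with Fcer1g was at 0.28 (0.35 on plate 1, 0.14 on plate 2, and 0.43 with spike-in scaling). In a ranking of 2024 well-read genes by likeness to Trem2 over the 143 cells, Fcgr3 was 1st and Tyrobp 173rd. After Fcgr3 came the cholesterol exporter Abcg1 (0.32) and 0610007C21Rik (0.32). The genes most like Tyrobp were Pld3 (0.39), Fcer1g (0.36) and the mitochondrial carrier Ucp2 (0.35). Those most like Fcer1g were the ferritin light chain Ftl1 (0.38), Tyrobp (0.36) and the scavenger receptor Stab1 (0.33).

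By CPM, Fcgr3 had the highest coefficients of the 5 genes ranked in this way. With spike-in scaling, Fcer1g was at 0.61 with Ftl1 and at 0.60 with Tyrobp. The highest of the 3 genes named for Fcgr3 was at 0.55 on that scale. All of these genes were picked by CPM, so the highest coefficients with spike-in scaling were not determined. The leading gene of Fcgr3 was Ctss, the lysosomal protease cathepsin S (0.52 over all cells, 0.52 on plate 1 and 0.51 on plate 2). Next came Apoe, the main apolipoprotein of the brain (0.48), and Ypel3 (0.47). Trem2 was 18th in the ranking of Fcgr3. The genes most like Fcgr1 were Fgd2 (0.34), Serinc3 (0.33) and the iron exporter Slc40a1 (0.33). Fcgr2b, Fcgr4 and Syk, read in under 50% of cells, were not ranked.

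**Figure D5:**
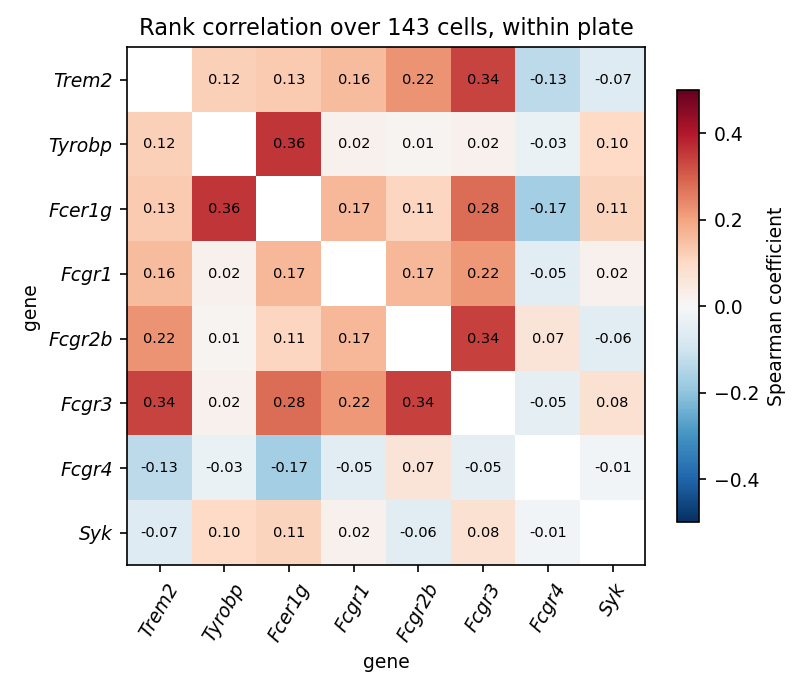
Spearman's rho for each of the 28 pairs of genes over 143 cells, with CPM ranked within plate (colour and printed value). The highest values are 0.36 for Tyrobp with Fcer1g and 0.34 for Fcgr3 with Trem2 and with Fcgr2b; Trem2 with Tyrobp is at 0.12.

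The genes that act beside and after Syk were taken from fixed lists. All 10 proximal kinases other than Syk had reads. Lyn, a Src family kinase that phosphorylates ITAMs and ITIMs, was read in 78.3% of cells (196 pooled CPM) and Btk, a kinase activated after Syk, in 47.6%. Per kb of merged exons Lyn stood at 48.1 and Syk at 4.65. Of 22 genes downstream of Syk, 8 had reads in 50% of cells or more, as did 17.2% of all genes with any count. The small GTPases Rac1 (97.2%, 505 pooled CPM) and Rac2 (89.5%, 388) and the transmembrane linker Lat2 (56.6%) had the highest levels per kb of merged exons.

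Some genes of the inhibitory side other than Fcgr2b were read in most cells. Of 8 phosphatases and docking proteins, 2 had reads in at least 50% of cells, and the median of the 8 was 25.2%. Ptpn6 (SHP-1) was read in 93.01% of cells at 584 pooled CPM and Inpp5d (SHIP1), which binds the Fcgr2b tail, in 91.6% at 310. The third by level, Dok2, was read in 13.3%. Of 15 inhibitory ITIM receptors other than Fcgr2b, 2 had no read in any cell and 5 had reads in at least 50%. The median of the 15 was 20.3%. Among all genes with any count, 17.2% had reads in at least 50% of cells. Sirpa, the receptor for CD47, was read in 99.3% (1217 pooled CPM), Lilrb4 in 87.4% (564) and Cd300a in 76.9% (288). Per kb of merged exons these were 248, 107.99 and 60.8, against 17.9 for Fcgr2b.

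Of other Fc receptors and their homologues, 5 of 10 were read in 0 cells. Fcrls, an Fc receptor-like gene known as a microglia marker, was read in all 143 cells at 3434 pooled CPM. Fcgrt, the neonatal Fc receptor that recycles IgG, was read in 66.4% and Fcrl1 in 10.5%. The proteases known to shed Trem2 from the surface were both read, Adam10 in 96.5% of cells (290 pooled CPM) and Adam17 in 66.4% (157). Among carriers of lipids that bind Trem2, Apoe was read in every cell at 33709 pooled CPM, while Clu was read in 2 cells, Apob in 1 and Apoa1 in 0.

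The 8 genes were compared between the plates. With a 1.5-fold ratio of pooled CPM in either direction as the limit, 0 of 8 genes passed it, and 27.8% of the 7616 genes with at least 10 pooled CPM did. Trem2 had 1447 CPM on plate 1 and 1282 on plate 2, Tyrobp 2570 and 2299, and Fcer1g 1888 and 1660. Syk came nearest to the limit, at 55.3 CPM on plate 2, a ratio of 1.45 to plate 1. Fcgr1 reads were found in 67.4% of plate 1 cells and 52.1% of plate 2 cells, and its median was 113.6 against 37.05 CPM, a difference past the limit by medians only.

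Microglia of this phenotype are known to include dividing cells, so the genes were also compared between 65 cells of a cycling class and 78 others. The class holds cells with at least 6 of 24 S phase genes or 8 of 30 G2/M genes at 10 CPM or more. Its limits cut through a continuous range, and 41 cells were within 2 genes of either limit. Of the 8 genes, 1 passed 1.5-fold, and of all 7616 genes 34.9% did. This was Fcgr2b, with 67.7 pooled CPM in the class and 135.2 in other cells, a log2 ratio of -0.99. The log2 ratio was -0.74 on plate 1, where 40.4% of genes passed the limit, and -1.82 on plate 2, where 50.6% did. Reads were present in 43.1% of cells of the class and 53.8% of others.

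That comparison depends on the scale. Cells of the class had more RNA, with a median of 27.98 gene counts per spike-in count against 21.7, and more genes read, 3590 against 2903.5. With counts scaled to spike-ins, the log2 ratio of Fcgr2b was -0.58, just short of the limit, while Fcgr1 narrowly passed it at 0.59 (0.19 by CPM). Both lay so close to the limit that the side on which they fell carries little weight. With this scaling 48.6% of genes passed, with a median over all genes of 0.50. The Fcgr1 value came from plate 1, where it was 0.73 (52.9% of genes passed the limit there), and on plate 2 it was 0.03 (57.7% passed). By CPM, Fcgr1 was at 0.30 on plate 1 and -0.34 on plate 2. On that scale Trem2 turned from a ratio of 0.81 by CPM to 1.07, Tyrobp from 0.93 to 1.24 and Fcer1g from 0.90 to 1.20, so these genes are given no direction. Fcgr3 moved from 0.75 to 0.99. The summed level of the border macrophage markers, from 0 to 1760 CPM per cell, had a weak rho of 0.28 with Fcgr2b. Mrc1 held 181 of the 233 pooled CPM of these markers. The summed microglia and astrocyte markers had a rho of 0.19 and -0.21 with Fcgr2b. The part of border macrophages in the Fcgr2b result was not tested.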

How the data were processed

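The authors deposited a table of whole-number counts per gene and cell, with 23337 gene rows and 92 spike-in rows. STAR 2.5.3a, HTSeq, Picard and Trim Galore 0.4.3 are named in the submitters' processing notes, with the build mm10. Their settings, the gene annotation and the use of strand are not given in the sources used here. Total counts, spike-ins included, ran from 271190 to 1226521 per cell, and no cell was removed.

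From these counts, CPM over gene counts were computed with pandas 2.3.3 and scipy 1.17.1, and pooled CPM from counts summed over cells. Log2 ratios are of pooled CPM + 1. Lengths came from GENCODE annotation of GRCm38. Variability was the squared coefficient of variation against a running median of 201 genes. Likeness was ranked among genes read in 50% of cells at 50 pooled CPM or more. Named list genes are the 3 with the highest level per kb of merged exons in each list, of which 1 is not reported here. On simulated counts, 200 genes were raised 2-fold in 65 cells over 78 others, and 76.5% of them passed 1.5-fold upward. In the same run 25.1% of unchanged genes passed it in either direction. Of 200 genes raised 1.5-fold, 53.5% passed it upward.

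The 8 genes, the lists and the settings were chosen with earlier results of these data known. After values were seen, Cd300ld was moved to the receptors pairing with Fcer1g, and Gp49a was dropped from the ITIM receptors.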

Additional observations from a re-analysis of the deposited data

How the results depend on the processing

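Settings tried were a limit of 10 CPM for detection, thinning each cell to 200000 gene counts, removal of Rn45s, spike-in scaling, each plate alone, other lengths, and other limits of the cycling class. With 1 pool there are no replicates to leave out. No paired analysis was possible because all cells belong to 1 group. Fcgr2b was lower in the cycling class under each of its settings, but these reuse the same cells and are not independent of each other. In the main comparison 34.9% of all genes passed the limit. With spike-in scaling the log2 ratio of Fcgr2b was -0.31 on plate 1 and -1.45 on plate 2. By CPM, Fcgr1 was -0.34 (log2) on plate 2 alone against 0.19 over all cells.

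Fcgr1 detection was 52.1% on plate 2 alone and Fcgr3 detection 100% on plate 1 alone. Trem2 to Tyrobp was 0.258 by coding length and 0.291 by CCDS transcript, and Tyrobp to Fcer1g 1.04 by coding length, because the lengths differ. As medians of per-cell ratios, Fcgr4 to Fcer1g, Fcgr2b to the activating receptors and Syk to both adaptors were 0, since each numerator was unread in most cells. Between the cycling class and other cells, spike-in scaling gave log2 ratios of 0.59 for Fcgr1 and -0.58 for Fcgr2b. Between plates, medians gave -1.59 for Fcgr1. With spike-ins, rho was 0.60 for Tyrobp with Fcer1g and 0.43 for Fcer1g with Fcgr3, and the cause was not tested. Thinning left detection at 60.8% for Fcgr1, 47.6% for Fcgr2b, 25.2% for Fcgr4 and 31.5% for Syk, each within 1.5 percentage points of the share at full depth.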
